A study of Mus musculus with 2 samples.

Results

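The genes described here are the stress-response genes controlled by the transcription factor ATF4 and the cytosolic tRNA synthetases, measured in CT26 mouse colon carcinoma cells with and without a hairpin against CDK8. They were chosen by name from a list of 40 genes, of the 28907 genes on the array, and every one of the 40 had at least 1 probe. The list holds 20 subunits of cytosolic tRNA synthetases, 11 genes of the ATF4 arm and 6 enzymes of serine and one-carbon metabolism. A further 3 are enzymes of asparagine and proline synthesis. The 11 genes of the ATF4 arm, called its regulators here, are transcription factors, regulators and targets, among them the enzyme Chac1. Of the 80 probes matched to the 40 genes, 69 were above background on at least 1 array. This left 38 genes detected on both arrays and 2, Yars and Psph, detected on neither.

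tRNA synthetases join each amino acid to its tRNA and so supply the ribosome. When amino acids run short, or when misfolded protein loads the endoplasmic reticulum, kinases phosphorylate the initiation factor eIF2. General translation then slows while ATF4 mRNA is translated more, and ATF4, paired with C/EBP factors, raises genes for amino acid synthesis, amino acid transport and many synthetases. ATF4 also induces DDIT3 (CHOP) and TRIB3, genes of a later phase that includes cell death and feedback. Because ATF4 is controlled largely at translation, its mRNA level is not a measure of its protein.

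The study set CT26 cells transduced with the vector pLKO.1 carrying an shRNA against CDK8 (shCDK8) beside CT26 cells transduced with the empty pLKO.1 vector (pLKO.1). CDK8 is a kinase of the Mediator complex, which connects transcription factors to RNA polymerase II, and the comparison asks which transcripts differ when it is depleted. Each group was 1 biotin-labelled cRNA sample on Illumina mouse whole-genome bead arrays, deposited as 1 column of values that is called its array here, and the sources used here do not say whether the cells were a clone or a pool. With 1 array a group no spread between cultures can be estimated, no test was made, and "higher" and "lower" describe these arrays only. Cell number and RNA content per cell cannot be told apart in such samples.

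The targeted gene was lower in the cells that carry the hairpin. The single Cdk8 probe above background had a raw intensity of 317.9 on the shCDK8 array, against 992.5 on the pLKO.1 array, a difference of -1.99 on the log2 scale. Further probes for Cdk8 did not rise above background. The background peak lay at 88 and 88.6 on the shCDK8 and pLKO.1 arrays, and 47.0% and 46.1% of probes were detected. Of 12 colon epithelial markers only 5 were detected (Krt20, Cdx2, Cdh1, Lgals4, Cdx1), all dim, while Krt8, Krt18, Krt19, Epcam, Vil1, Cdh17 and Muc2 were not above background, so these probes bear out the label of colon carcinoma only weakly. Krt20 and Cdx2 were lower in shCDK8, at -0.94 and -0.93, and the summed intensity above background of the 12 markers was 82.6 on the shCDK8 array, against 135.8 on the pLKO.1 array. Of the fibroblast markers 7 of 10 were detected on both arrays, and their sum was 5200 on the shCDK8 array, against 2987 on the pLKO.1 array. Most of that sum was Dcn, and the list went both ways, with 2 genes at least 1.5-fold higher and 2, Pdgfrb and Col3a1, at least 1.5-fold lower. Leukocyte markers (2 of 9 detected, Ptprc not above background) summed to 129.3 in shCDK8 and 159.1 in pLKO.1. Endothelial markers (1 of 6) and hepatocyte markers (1 of 8, Alb not above background) summed to 34.1 or less on either array. The part of these shifts in the results below was not tested.

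No member of the list differed by as much as 1.5-fold between the arrays, by the mean over each gene's detected probes. Over all 12792 genes detected on both arrays, 2.21% were at least 1.5-fold lower and 2.02% at least 1.5-fold higher in shCDK8. The differences of the 38 members, given throughout as shCDK8 minus pLKO.1 on the log2 scale, ran from -0.57 for Ddit3 to 0.49 for Pycr1, with a median of -0.09 beside -0.00 for all genes. A smaller yardstick is the SD between probes of the same gene, 0.20, which describes disagreement within these arrays and not between cultures. It is a spread of single probes, so gene means over several probes pass it less often. By it 12 of the 38 members were lower, or 31.6%, against 18.5% of all genes, and 3 were higher, or 7.89%, against 17.8% of all genes. The lower members made up 6 of 11 ATF4 arm regulators, 2 of 5 serine and one-carbon enzymes, 4 of 19 synthetases and none of the 3 asparagine and proline enzymes. Whether these groups differ was not tested.

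**Figure D1:**
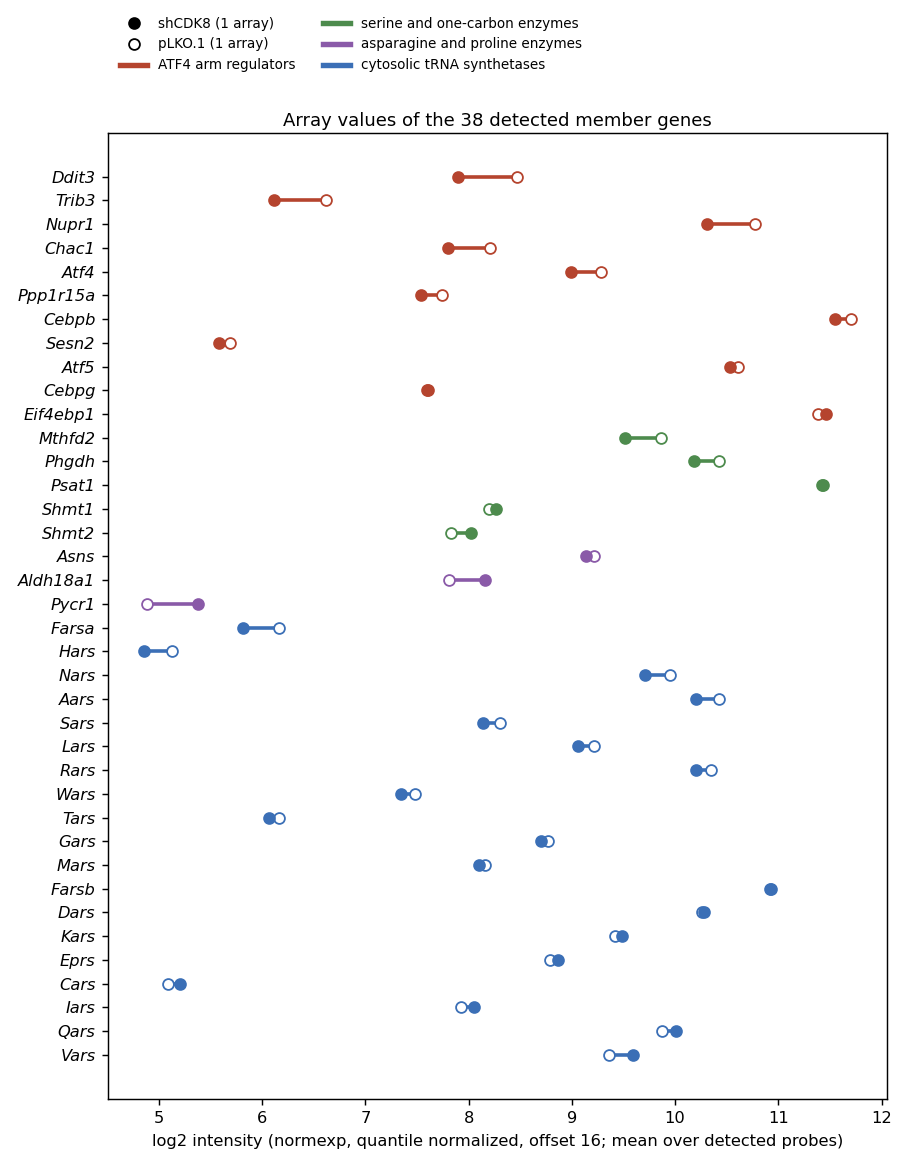
Log2 intensity of each of the 38 detected member genes (x axis; rows are genes grouped by role) on the shCDK8 array (filled points) and the pLKO.1 array (open points), 1 array each, as the mean over detected probes. The filled point lies to the left of the open one for Ddit3, Trib3, Nupr1, Chac1 and Atf4, to the right for Pycr1 and Aldh18a1, and close to it for most synthetases; positions of different genes cannot be compared, because probes differ in brightness.

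The promoters of the members are shown first because the binding motif of ATF4 dimers is common among them. The members were chosen by name as genes of the ATF4 response and synthetases. A raised share of the motif can come from that choice and is not a result of these arrays. The motif searched was TGATGNAA on either strand (TTNCATCA on the other), the core of the composite element that ATF4 and C/EBP factors bind. It was looked for in RefSeq promoter windows of build GRCm38.p6, which run from 250 bases before to 50 bases after the start of a gene. Of 32851 such windows in the table, 3.97% held a match, and 4.51% of the 27025 genes with a window held one in any of theirs. Of the 32 members with a window, 10 held one, or 31.2%, among them 5 of 13 synthetases and 5 of 19 other members. A match is a run of letters and was not tested for binding. The 4 whole promoters below belong to Trib3, Chac1 and Nupr1, which were lower in shCDK8, and to Asns, whose difference was near 0. They lie at chr2:152344011-152344310 (minus strand), chr2:119350992-119351291 (plus strand), chr7:126625421-126625720 (minus strand) and chr6:7693160-7693459 (minus strand). Sequences run 5′ to 3′ on the strand of the gene, and capitals mark the motif. It starts at base 15 of the transcript in Trib3 and at base -193, -110 and -23 before the start in Chac1, Nupr1 and Asns.
Trib3: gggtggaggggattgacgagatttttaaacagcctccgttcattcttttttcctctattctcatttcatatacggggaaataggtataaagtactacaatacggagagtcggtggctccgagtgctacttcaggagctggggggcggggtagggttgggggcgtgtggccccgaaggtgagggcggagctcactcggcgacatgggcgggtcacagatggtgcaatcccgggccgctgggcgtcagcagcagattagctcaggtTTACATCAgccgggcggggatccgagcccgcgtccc
Chac1: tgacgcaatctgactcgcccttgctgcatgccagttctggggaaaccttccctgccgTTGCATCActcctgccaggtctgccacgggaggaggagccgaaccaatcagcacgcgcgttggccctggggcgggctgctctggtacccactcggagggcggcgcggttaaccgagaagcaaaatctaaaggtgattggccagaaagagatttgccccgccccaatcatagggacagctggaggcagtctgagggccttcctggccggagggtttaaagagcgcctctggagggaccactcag
Nupr1: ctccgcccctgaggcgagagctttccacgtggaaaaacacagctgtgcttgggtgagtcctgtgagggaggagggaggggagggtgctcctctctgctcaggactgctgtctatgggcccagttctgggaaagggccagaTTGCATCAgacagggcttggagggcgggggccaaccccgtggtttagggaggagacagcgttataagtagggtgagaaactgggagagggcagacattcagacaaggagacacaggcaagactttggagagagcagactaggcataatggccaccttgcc
Asns: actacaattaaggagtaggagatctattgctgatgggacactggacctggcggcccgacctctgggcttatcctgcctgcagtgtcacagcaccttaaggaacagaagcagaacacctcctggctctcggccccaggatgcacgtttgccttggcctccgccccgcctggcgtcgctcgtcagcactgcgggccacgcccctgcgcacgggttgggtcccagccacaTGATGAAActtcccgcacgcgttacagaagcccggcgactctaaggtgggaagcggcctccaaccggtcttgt

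The other 6 genes with a match are shown as windows of 30 bases around it, so that the motif and its flanks can be compared. The match shown for Aars was at base 10 (chr8:111033840-111033869, plus strand). The match of Gars was at base -30 (chr6:55037960-55037989, plus strand), that of Iars at base 8 (chr13:49682126-49682155, plus strand) and that of Tars at base -15 (chr15:11399655-11399684, minus strand). Yars held it at base 4 (chr4:129189895-129189924, plus strand) and Pycr1 at base -103 (chr11:120643833-120643862, minus strand).
Aars: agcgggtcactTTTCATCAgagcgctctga
Gars: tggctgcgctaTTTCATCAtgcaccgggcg
Iars: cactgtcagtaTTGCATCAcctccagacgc
Tars: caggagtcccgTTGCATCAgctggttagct
Yars: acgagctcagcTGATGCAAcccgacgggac
Pycr1: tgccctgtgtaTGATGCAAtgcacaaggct

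The 9 detected genes with a match did not share a direction. Their differences ran from -0.51 for Trib3 to 0.49 for Pycr1, with a median of -0.10 and 7 of 9 below 0, several of them close to it, beside 50.7% of all genes. The 21 detected genes whose windows held no match ran from -0.57 for Ddit3 to 0.34 for Aldh18a1, with a median of -0.05 and 12 of 21 below 0. Both sets are small, and whether they differ was not tested. Ddit3, Atf4 and Mthfd2, which were lower in shCDK8, had no match in these windows, which says only that these letters are not there.

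Among the member groups, the regulators of the ATF4 arm held the largest differences below 0. Of the 11 genes, 6 were lower by the probe SD and none higher, against 18.5% and 17.8% of all genes. Their median was -0.20. Counting any difference below 0 gives 9 of 11, beside 50.7% of all genes, and the same 9 were below 0 under every processing alternative tried. Those alternatives reuse the same arrays. The ones that choose among probes cannot change Atf5, Cebpb, Nupr1, Chac1 or Ppp1r15a, which have 1 probe each. Ddit3 encodes CHOP, the C/EBP-family factor of the late stress response. Its brighter probe gave a raw intensity of 436.9 on the shCDK8 array, against 579.6 on the pLKO.1 array. The dimmer probe gave 239.0, against 304.7 for pLKO.1. Both probes put the difference at -0.57, or 1.49-fold lower, rank 298 from the lowest of 12792 genes.

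Trib3 encodes a pseudokinase that is induced by ATF4 and CHOP and restrains them. Its brightest probe read 241.4 on the shCDK8 array, against 340.8 on the pLKO.1 array, a difference of -0.76. The middle probe read 122.3, against 144.1 for pLKO.1, and differed by -0.56. The dimmest read 113.2, against 118.8 for pLKO.1, and differed by -0.20. All 3 probes pointed the same way but disagreed in size by 0.56, so the mean of -0.51 is a loose figure, and the brightest probe alone is past 1.5-fold.

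Nupr1, a small stress-induced chromatin protein, was measured by 1 probe, at 1373 on the shCDK8 array, against 1774 on the pLKO.1 array, a difference of -0.46. Chac1, an enzyme that breaks down glutathione and a sensitive target of ATF4, was likewise measured by 1 probe, at 303.0 on the shCDK8 array, against 358.7 on the pLKO.1 array, a difference of -0.40. Both were well above background on both arrays, and both lie in the lowest tail of the array, at ranks 512 and 699 from the lowest.

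Atf4 itself was lower at each of its probes. The bright probe read 1961 on the shCDK8 array, against 2551 on the pLKO.1 array, a difference of -0.44. The dimmer one read 217.9, against 222.2 for pLKO.1, and differed by -0.14. The mean of -0.29 therefore averages a clear and a small difference. Ppp1r15a (GADD34), which directs a phosphatase to eIF2 and so ends the response, had log2 values of 7.54 in shCDK8 and 7.74 in pLKO.1, a difference of -0.20 that only just reaches the yardstick.

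The remaining regulators differed by less than the SD between probes. Cebpb and Cebpg encode partners of ATF4. The log2 values of Cebpb were 11.55 in shCDK8 and 11.71 in pLKO.1, a difference of -0.16. Cebpg had a mean of 0.01 that hides a bright probe at -0.19 and a dim one at 0.21. Atf5, a relative of ATF4 with the same translational control, had a difference of -0.08, and Sesn2, a stress-induced inhibitor of mTORC1, one of -0.10. Eif4ebp1, a repressor of cap-dependent translation, was the other gene above 0, at 0.08.

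**Figure D2:**
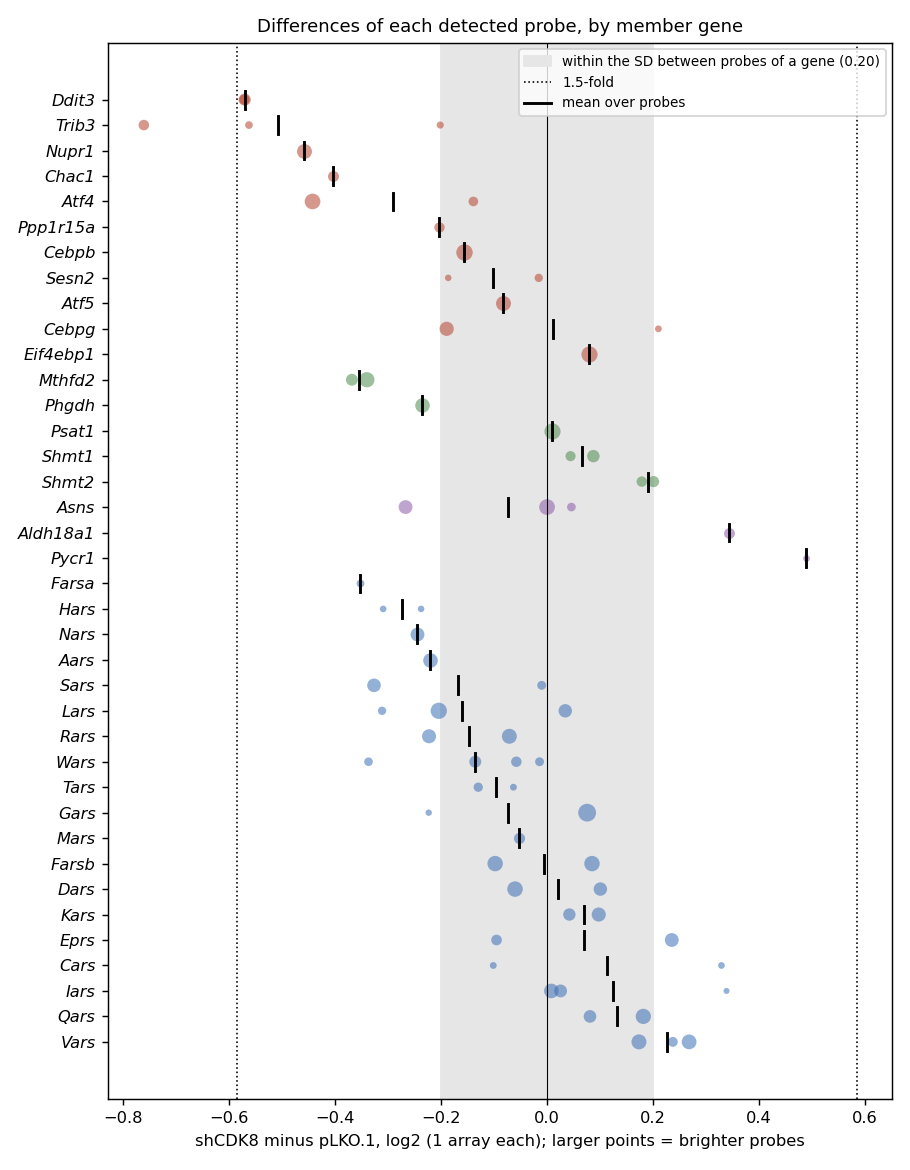
Difference of shCDK8 minus pLKO.1 on the log2 scale (x axis) for every detected probe (points; larger points are brighter) of the 38 member genes (rows), 1 array a group, with the mean over probes as a black bar, the probe SD of 0.20 shaded and 1.5-fold dotted. The probes of Ddit3 coincide at -0.57 and those of Trib3 spread from -0.76 to -0.20, while no bar reaches the dotted lines.

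Of the 5 detected enzymes of serine and one-carbon metabolism, Mthfd2 and Phgdh were lower by the probe SD and none was higher. Of all genes, 18.5% were lower and 17.8% higher by it. Mthfd2, the mitochondrial folate enzyme of the pathway, was lower at both probes. Its bright probe read 1666 on the shCDK8 array, against 2009 on the pLKO.1 array, and the dimmer one read 425.1, against 496.7 for pLKO.1. The differences of -0.34 and -0.37 gave a mean of -0.35. Phgdh, which commits a glycolytic intermediate to serine, had a raw intensity of 1263 on the shCDK8 array, against 1411 on the pLKO.1 array, a difference of -0.24 at 1 probe.

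Psat1, which catalyses the next step, did not follow Phgdh. It read 2879 on the shCDK8 array, against 2767 on the pLKO.1 array, a difference of 0.01. Psph, the last enzyme of serine synthesis, read 87.1 on the shCDK8 array, against 86.5 on the pLKO.1 array, both at background, so it was not measurable with its probe. The enzymes that turn serine into glycine differed by less than the probe SD. Shmt2, the mitochondrial form, had a difference of 0.19 with its probes at 0.18 and 0.20, and Shmt1, the cytosolic form, had one of 0.07. The median of the 5 detected genes was 0.01.

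Asns, the asparagine synthetase and a standard ATF4 target, showed no common direction over its 3 probes. The brightest read 2356 on the shCDK8 array, against 2272 on the pLKO.1 array, a difference of 0.00. The next read 906.4, against 1028 for pLKO.1, and differed by -0.27, and the dimmest differed by 0.05. The proline enzymes were the members with the largest differences above 0. Aldh18a1, which makes the precursor of proline from glutamate, read 367.0 on the shCDK8 array, against 290.1 on the pLKO.1 array, a difference of 0.34. Pycr1, which makes proline from that precursor, read 114.1 on the shCDK8 array, against 102.0 on the pLKO.1 array. Its difference of 0.49 comes from a probe close to background and ran from 0.16 to 0.86 under the alternatives, so its size is uncertain.

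The cytosolic synthetases stayed close to 0. Of the 19 detected genes, 12 were below 0 and 7 above, with a median of -0.07, and none reached 1.5-fold. By the probe SD 4 were lower, or 21.1%, which is near the 18.5% of all genes, and 1 was higher, or 5.26%, against 17.8% of all genes. The largest difference was that of Farsa, a subunit of phenylalanyl-tRNA synthetase. It read 129.3 on the shCDK8 array, against 142.7 on the pLKO.1 array, a difference of -0.35 at 1 dim probe. Farsb, the other subunit of the same enzyme, differed by -0.01, with probes at -0.10 and 0.08.

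Hars, for histidine, was lower at both probes but dim. One probe read 100.7 on the shCDK8 array, against 106.0 on the pLKO.1 array, and the mean difference was -0.27. Nars, for asparagine, read 932.6 on the shCDK8 array, against 1042 on the pLKO.1 array, a difference of -0.25. Aars, for alanine, read 1280 on the shCDK8 array, against 1416 on the pLKO.1 array, a difference of -0.22. At the other end, Vars, for valine, was higher at all 3 probes. The brightest of them read 1753 on the shCDK8 array, against 1510 on the pLKO.1 array, and the mean difference was 0.23.

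In mammalian cells 8 of these proteins sit together in the multisynthetase complex, and the genes can be read along that division, which was drawn after the values were seen. The 8 genes of the complex (Dars, Eprs, Iars, Kars, Lars, Mars, Qars and Rars) ran from -0.16 for Lars to 0.13 for Qars, with a median of 0.05. None passed the probe SD, although single probes of Eprs (0.24), Rars (-0.22) and Lars (-0.31) did. The 11 detected genes outside it ran from -0.35 for Farsa to 0.23 for Vars, with a median of -0.14. By the probe SD 4 of these 11 were lower and 1 higher, against 18.5% and 17.8% of all genes. Below 0 lay 9 of the 11, beside 50.7% of all genes. Among these 9, Farsb (-0.01) and Gars (-0.07) changed sign under some alternatives. Because the division was drawn with the values known, these shares cannot serve as a test of it. Of the genes lower by the probe SD, Farsa, Nars and Aars rest on 1 probe each and Hars on dim ones. Every gene of the complex but Mars averages more than 1 probe. A mean over several probes passes a single-probe yardstick less often, so these counts cannot be told apart from probe number. The scaffold genes of the complex were lower at -0.21 for Aimp1, -0.21 for Aimp2 and -0.26 for Eef1e1, unlike the median of the enzymes they hold. Aimp1 and Eef1e1 rest on 1 probe each, and whether scaffold genes and enzymes differ was not tested. Within the complex, Lars rests in part on a dim probe named through an older symbol, without which its difference is -0.08.

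The single enzymes of the complex show how probes of a gene can differ. Eprs, which charges tRNAs for both glutamate and proline, read 1081 at its bright probe on the shCDK8 array, against 885.9 on the pLKO.1 array, a difference of 0.24. Its dimmer probe read 299.0, against 299.5 for pLKO.1, and differed by -0.10, which arises in the normalization because the raw readings were nearly equal. Qars, for glutamine, was above 0 at both detected probes, the brighter of which read 1998 on the shCDK8 array, against 1702 on the pLKO.1 array. Rars, for arginine, was below 0 at both, by -0.22 and -0.07. The bright probes of Iars, for isoleucine, differed by 0.01 and 0.03, and its mean of 0.12 comes from a dim probe detected in shCDK8 only. Kars, for lysine, differed by 0.07, Dars, for aspartate, by 0.02 and Mars, for methionine, by -0.05.

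Of the other synthetases outside the complex, Sars, for serine, had probes at -0.33 and -0.01 and a mean of -0.17. Wars, for tryptophan, an enzyme that interferon also induces, had 4 probes between -0.34 and -0.01 and a mean of -0.14. Gars, for glycine, which serves mitochondria as well, read 6953 at its bright probe on the shCDK8 array, against 6373 on the pLKO.1 array, a difference of 0.08. Its dim probe differed by -0.22 and pulls the mean to -0.07. Tars, for threonine, differed by -0.10, and Cars, for cysteine, by 0.11, with dim probes at -0.10 and 0.33. Yars, for tyrosine, read 92.1 on the shCDK8 array, against 91.9 on the pLKO.1 array, and was not above background. Probes spread over both sides of 0 in 8 of the 24 members with at least 2 detected probes.

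Further lists place the members in their pathway, each read against the same shares of all genes. By the probe SD these were 18.5% lower and 17.8% higher, and past 1.5-fold 2.21% lower and 2.02% higher. Of 17 further ATF4 targets detected on both arrays, 1 was at least 1.5-fold higher and 1 at least 1.5-fold lower, with a median of -0.05. By the probe SD 5 were lower and 2 higher. Vldlr, a lipoprotein receptor, stood highest at 0.95, with log2 values of 10.19 in shCDK8 and 9.24 in pLKO.1 and 5 probes between 0.84 and 1.04. Cebpd, a C/EBP factor, was lowest at -0.64, with a raw intensity of 304.0 on the shCDK8 array, against 411.8 on the pLKO.1 array. Slc1a5, a glutamine transporter, differed by -0.56 at dim probes. Atf3, a stress-induced repressor downstream of ATF4, read 93.4 on the shCDK8 array, below the detection limit of 93.7, against 108.8 on the pLKO.1 array. With its shCDK8 value raised to the lowest detected signal, it was 1.69-fold lower in shCDK8. That figure rests on 1 dim probe and on the background correction and offset used, so its size is uncertain. Slc7a5 was not analysed here.

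Upstream of ATF4, a list of 14 detected genes had a median of -0.11. It holds the eIF2 kinases, eIF2 and its exchange factor, and also Impact, Nck1 and Ppp1r15b. By the probe SD 5 were lower, or 35.7%, against 18.5% of all genes, and none higher, against 17.8%. The 5 were Impact, Nck1, Eif2s2, Eif2b2 and Eif2b4. None was a kinase: Eif2ak1, Eif2ak2, Eif2ak3 and Eif2ak4 differed by -0.04, 0.03, -0.18 and 0.04. Impact, an inhibitor of the amino acid sensor GCN2, was lowest at -0.44, followed by Eif2s2 at -0.27 and Eif2b2 at -0.26. The 20 genes of the unfolded protein response had a median of 0.02, with 2 lower by the probe SD and 4 higher. Dnajb11, a chaperone partner in the endoplasmic reticulum, was at least 1.5-fold lower at -0.59, with 1124 on the shCDK8 array, against 1592 on the pLKO.1 array. Dnajc3 lay on the other side at 0.46. The mean of Sel1l was 0.34, but it comes from a dim probe at 0.81, while the brighter probes gave 0.17 and 0.05. Hspa5 and Xbp1, standard reporters of that response chosen after their values were seen, differed by -0.17 and 0.06. Hspa5 had 1 dim probe, at 142.1 on the shCDK8 array, against 148.1 on the pLKO.1 array, so its value is a weak reading of that gene.

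Mitochondrial synthetases, encoded by separate genes, had a median of -0.01 over 15 detected genes, with 2 past the probe SD in each direction. Nars2 was lowest at -0.51, and Lars2 was at -0.32. The folate and glycine cycle had a median of 0.00 over 11 genes, 1 of them lower and 3 higher by the probe SD, with Gldc at 0.42 and Mthfs at -0.39. Other amino acid enzymes had a median of -0.02 over 13 genes but a wide range, with 6 lower by the probe SD and 3 higher. Prodh, which breaks proline down, was 1.55-fold lower at -0.63, with log2 values of 5.40 in shCDK8 and 6.03 in pLKO.1, close to background. Bcat2, a branched-chain aminotransferase, was 1.51-fold lower at -0.59. Ass1, of arginine synthesis, was highest at 0.57, with 1236 on the shCDK8 array, against 814.2 on the pLKO.1 array. Genes of mTORC1 signalling had a median of -0.02 over 14 genes, 2 of them lower and 3 higher by the probe SD, with Sesn1 at 0.55, Rps6kb1 at -0.33 and Castor1 at 0.31.

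**Figure D3:**
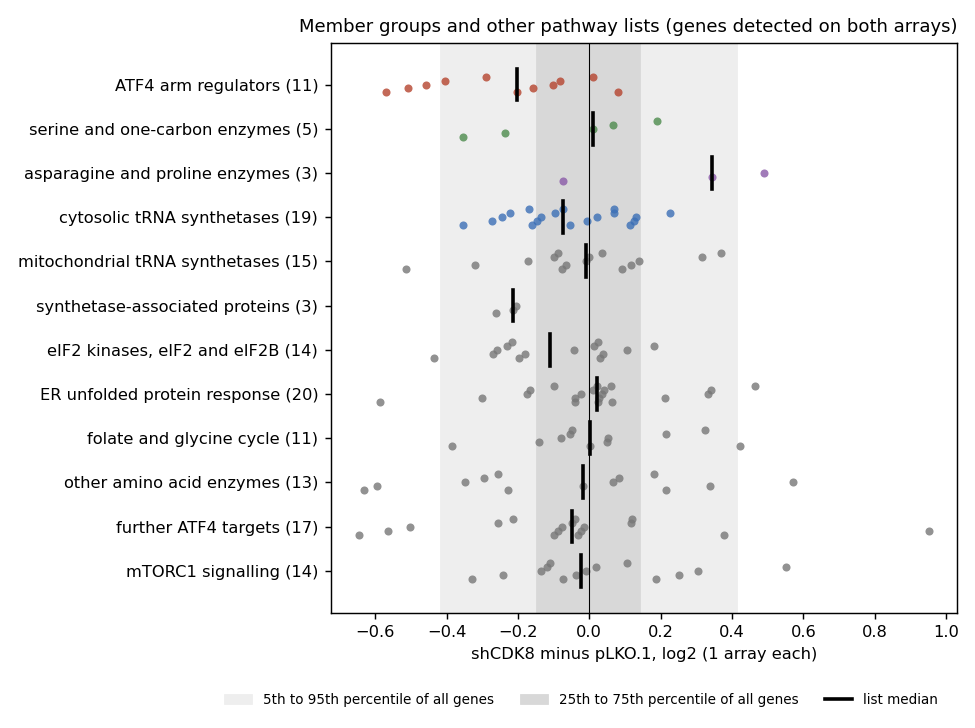
Difference of shCDK8 minus pLKO.1 on the log2 scale (x axis) for each gene detected on both arrays (points) of the 4 member groups and 8 other pathway lists (rows, number of genes in brackets), with list medians as black bars and the central ranges of all 12792 genes shaded. The ATF4 arm regulators lie mostly left of 0 with a median of -0.20, the synthetases centre on -0.07, and Vldlr stands alone at 0.95.

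The processing alternatives moved the dim members most. Ddit3 kept a difference between -0.61 and -0.45 and Nupr1 one between -0.49 and -0.44. For Trib3 the range was -0.76 to -0.30, and for Hars, near background, -0.52 to -0.08. Farsa ran from -0.46 to -0.17, the smaller size without background correction, and Aldh18a1 from 0.15, with its undetected probe averaged in, to 0.37. In 31 of the 38 members the sign was the same under every alternative. The exceptions were Cars, Dars, Farsb, Gars, Cebpg, Psat1 and Asns, whose values lay near 0 or whose probes disagreed. All alternatives reuse the same arrays, and the choice among probes cannot move a gene with 1 probe on the array.

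**Figure D4:**
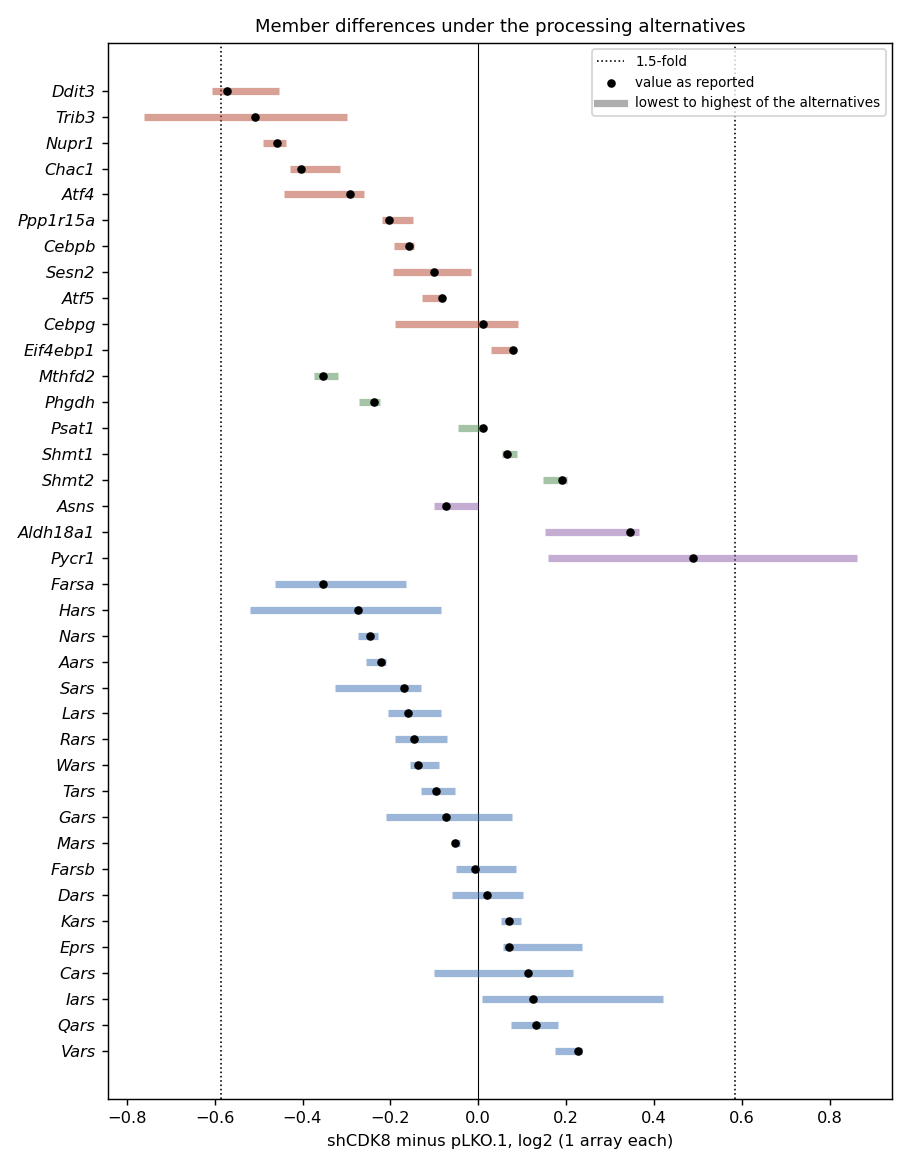
Difference of shCDK8 minus pLKO.1 on the log2 scale (x axis) for the 38 member genes (rows): points give the value as reported and bars the lowest to highest value under the 11 processing alternatives, with 1.5-fold dotted. The bars of Nupr1, Chac1, Mthfd2 and Phgdh stay short and left of 0, while those of Pycr1, Hars and Trib3 are long.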

How the data were processed

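Total RNA of 1 shCDK8 and 1 pLKO.1 culture was measured on Illumina bead arrays. The deposited non-normalized table holds a raw intensity for each of 45281 probes and array, exported with GSGX 1.9.0 as a group profile with no normalization and, by its analysis name, no background subtraction, per the file headers. Such a profile can average several arrays of a sample, and the header does not say whether it did. The other deposited table gives processed intensities from the authors, and how they were made is not given in the sources used here. Its median is 3.4 on both arrays, sorted values differ by at most 0.1 between arrays, and 29.8% lie below 0; it served as an alternative only.

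The peak of the dim probes gave each array's background, and values below it, mirrored, gave its SD (2.50 in shCDK8 and 2.56 in pLKO.1). Probes above the upper 1% of that distribution (93.7 and 94.5) counted as detected. Intensities were corrected with normexp (limma 3.58.1, R 4.3.3), quantile normalized, raised by an offset of 16 and converted to log2, so that differences of dim probes shrink towards 0. Raw intensities summed to 1.46e+07 on the shCDK8 array and 1.40e+07 on the pLKO.1 array. Probes with nearly equal raw readings, such as the dimmer ones of Eprs and Atf4, can therefore fall below 0 after normalization. Small differences depend on that step. A gene was the mean over probes detected on at least 1 array. Names came from gene numbers (29586 of 31508 found) or symbols, older ones included, in a RefSeq table of GRCm38.p6. The processing was tested on simulated arrays. The planned call was 1.5-fold; the probe SD, over 4267 genes, was added. The named genes were all members, and from other lists those past 1.5-fold and the 3 largest differences; a few items that this rule or the promoter search gave are not reported here. Members and lists were chosen with earlier results of these data known.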

Additional observations from a re-analysis of the deposited data

How the results depend on the processing

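Each value was recomputed under 11 alternatives, the last 2 of which, using only probes detected on both arrays and leaving out older symbols, were chosen after seeing the data. Of 415 recomputed member differences, 11 moved by more than the probe SD of 0.20. The median of the ATF4 arm regulators lay between -0.22 and -0.15 and that of the synthetases between -0.13 and -0.04, while that of the asparagine and proline enzymes was 0.14 with bright probes only. The Cdk8 difference was -1.71 without background correction and -0.69 with all probes averaged, which brings in probes at background. Apart from that, the cause of the changes given here was not tested.

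Members at least 1.5-fold lower numbered 2 with an offset of 1 (both ATF4 arm regulators) and 1 with bright probes only or with the brightest probe, and 1 proline enzyme was 1.5-fold higher with an offset of 1. Members higher by the probe SD numbered 6 with an offset of 1 and 1 without background correction or with all probes averaged, and the share of all genes moved too, to 25.1%, 7.90% and 15.3%. Among synthetases the number higher was 3 with an offset of 1 and 0 without background correction or with median scaling, and the number lower was 2 without background correction.

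In the other lists, an offset of 1 gave 1 mitochondrial synthetase lower, 2 unfolded protein genes lower and 1 higher, 2 further ATF4 targets in each direction and 1 mTORC1 gene higher. That mTORC1 count was also 1 with bright probes, the brightest probe or probes detected on both arrays. Further ATF4 targets lower were 2 with median scaling or a 5% detection limit, and 0 with an offset of 50, without background correction or with all probes averaged. Unfolded protein genes lower were 0 with an offset of 50, without background correction or in the authors' values, and other amino acid enzymes lower were 0 under these and with all probes averaged. No paired analysis was possible because each group has 1 deposited column of values, and leaving out a replicate was not possible for the same reason. Probes near the background limit, such as those of Hars, Pycr1 and Cars, set the precision.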
